A study of Mus musculus with 11 samples.

Results

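Regulatory T cells (Tregs) of control mice were compared between MC38 tumors and spleens, as 3 tumor and 3 spleen RNA-sequencing libraries out of the 11 of the series. All control mice carried a floxed Cd177 gene (CD177flox/flox) with no Cre and are called WT here, as in the sample titles. MC38, a mouse colon adenocarcinoma line, was grown as a graft under the skin, and per the study's methods the spleens came from the mice that bore the tumors, so that no library shows Tregs of a tumor-free animal. The study's methods describe a sort of live CD4+GITR+CD25+ cells and depletion of ribosomal RNA, and the sort did not use Foxp3. By those methods tumors were digested with enzymes and mechanically, and their cells were taken from a density gradient. Spleens were pressed through a strainer and their red cells lysed. Preparation thus differed with tissue throughout, so its effect cannot be told apart from that of tissue. In the other 5 libraries (KO, 3 of spleen and 2 of tumor) a Cre and YFP cassette at Foxp3, labelled CD177flox/flox/FOXP3-CreYFP, deletes Cd177 in Foxp3-expressing cells. Cd177 is not among the genes listed, so the genotype could not be checked from it. The tissues therefore share animals, but whether same-numbered spleen and tumor libraries come from 1 mouse, and whether mice were pooled, is not given in the sources used here. The fit does not use a pairing, and the p-values below measure the spread between these libraries only.

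The members are the 13876 of 14604 listed genes whose mean over the 6 libraries was at least 0.5 on the deposited scale, log2(n + 1), where n is the authors' estimated abundance summed by gene symbol. The 728 genes below that level were not tested. A gene is called when its Benjamini-Hochberg adjusted p in limma was below 0.05. Limma fits a linear model to each gene and draws the genes' variances toward a trend shared by all genes. All differences are tumor minus spleen on the log2(n + 1) scale, which understates the change of low genes, and levels are compared between libraries and not between genes.

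Tregs are CD4 T cells that hold other lymphocytes in check, and the transcription factor Foxp3 is needed for their identity. In spleen and lymph node many of them are central Tregs, which recirculate with the help of S1pr1 and express factors of resting T cells such as Tcf7, Lef1 and Bach2. In tissues and tumors they take the effector form, with more of the costimulatory receptors ICOS and 4-1BB (Tnfrsf9), inhibitory receptors such as Lag3 and Tim-3 (Havcr2), and suppressive products such as granzyme B (Gzmb), Fgl2 and amphiregulin (Areg). BCL-XL (Bcl2l1) and BCL-2 (Bcl2) are related proteins that protect cells from mitochondrial death. The design text of the series asks which genes are regulated differently between Tregs of the tumor and those of the spleen.

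Most genes differed between the tissues. Of the 13876 genes, 9541 (68.8%) were called, 5320 (38.3%) higher and 4221 (30.4%) lower in tumor, and for 10298 genes (74.2%) every tumor library lay on one side of every spleen library. Large differences were mostly rises, since 1161 called genes were higher by at least 2 and 250 lower by at least 2, and 247 against 10 passed 4. The median difference over all tested genes was 0.098, and the 5th and 95th percentiles were -1.49 and 2.63. The balance of rises and falls depended on the scale. With quantile normalization 4044 genes were higher and 5549 lower, with median centring 4197 and 5489, with equal library totals 2898 and 6716, and with centring on 21 T-cell lineage genes 9208 and 457. The median difference over all genes was -0.15, -0.14, -0.42 and 1.11 under these 4 scalings. A version of equal totals that left out Gm12896, chosen after seeing the data, gave 2985 and 7233 with a median of -0.46. Counts and medians of lists under a scaling are to be read beside these values of the same scaling. Gm12896, singled out after its values were seen, held between 31.4% and 42.4% of the summed n of each WT library. Of 35 gene lists used below, 25 kept the sign of their median difference in all 5 scalings, and the others are named with their reversed medians. Under a Bonferroni correction, the kind of adjustment the study's methods name, 1189 genes were called. With 3 libraries against 3, an exact two-sided permutation test of 1 gene cannot go below p = 0.1, and so the calls rest on the model across genes.

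**Figure D1:**
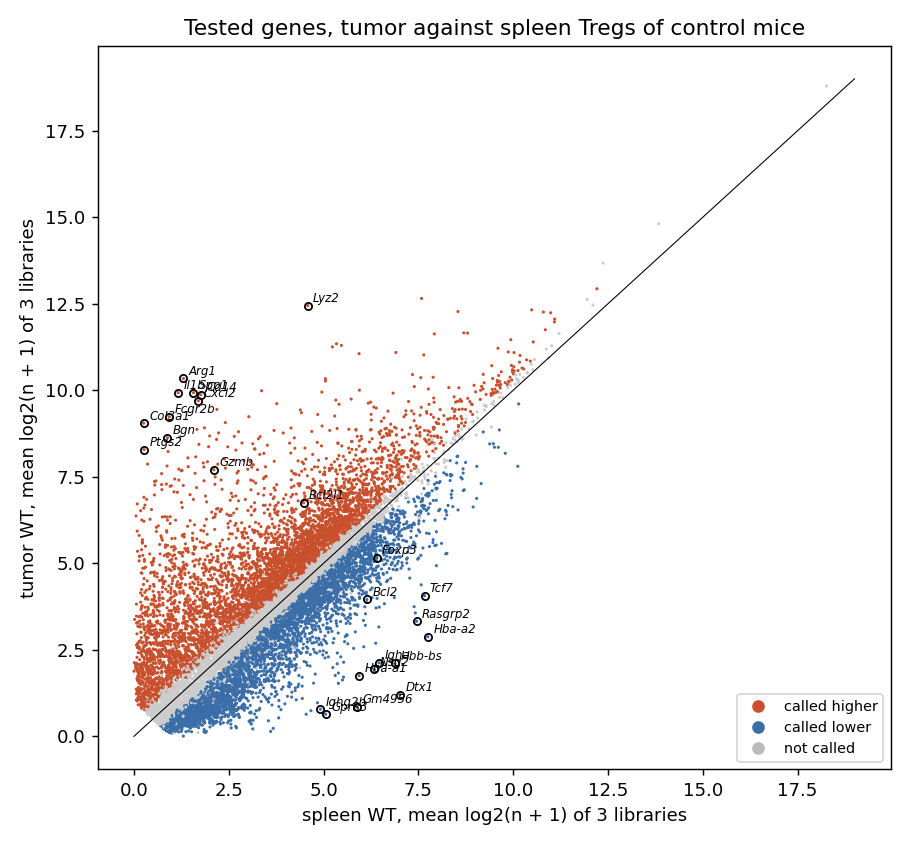
Mean log2(n + 1) of the 3 tumor WT libraries (y axis) against that of the 3 spleen WT libraries (x axis) for the 13876 tested genes, with called genes in color and the line of equal values. The 10 largest rises lie far above the line, from Bgn at 7.74 to Arg1 at 9.03, and the 10 largest falls below it, from Rasgrp2 at -4.13 to Dtx1 at -5.80. Ringed genes are these 20 and 5 further genes of the text.

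The libraries of one tissue lay close together, with correlations across genes between 0.971 and 0.985, against 0.748 to 0.824 between tissues. Genes are not independent replicates, so these values describe the libraries. The first principal component held 90.8% of the variance and separated the tissues. Tumor replicate 1 stood nearer to spleen than the other tumor libraries, with correlations of 0.813 to 0.824 against 0.748 to 0.770, and it was the tumor library nearest the spleen mean for 5816 of the 9541 called genes (61.0%). Spread was larger in tumor for 63.3% of the genes, with a median SD of 0.19 against 0.14 in spleen. The values are not counts, so the reads behind each library cannot be read from them, and the study's methods give only 1 approximate read depth for all libraries. The summed n was 742814, 812007 and 844331 in the spleen libraries and 1259684, 1103159 and 1304548 in the tumor libraries.

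The sort markers were present in every library, and markers of other cells were present beside them. Cd4 stood at 7.91, 7.60 and 7.82 in spleen, against 7.73, 7.21 and 7.23 in tumor. The difference was -0.39 (SE 0.16, adjusted p = 0.0621), which did not pass the test. It was called lower under 4 scalings, between -0.63 and -1.16, and called higher, at 0.62 (adjusted p = 0.0321), when the data were centred on T-cell lineage genes. Genes of the T-cell lineage were called lower for 16 of 21 members and higher for none, with a median of -0.95 that became -1.60 with all 21 lower under equal totals without Gm12896, and 0.062 with 6 called lower and 3 higher when the data were centred on these genes themselves. Their mean was 7.28, 7.35 and 7.34 in the spleen libraries and 6.75, 6.04 and 6.14 in the tumor libraries, with no overlap. Over the same libraries the 20 myeloid markers were all called higher in tumor (median 5.06), and their summed n was 0.042 to 0.089% of the spleen totals and 1.23 to 2.04% of the tumor totals. Tumor replicate 1 had the lowest tumor value for all 20 of them and the highest tumor value for 20 of the 21 T-cell lineage genes. In bulk RNA, fewer cells of a type and less RNA per cell cannot be told apart. The part that these other cells had in the differences below was not tested.

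The counts of the T-cell lineage and myeloid lists above and of the remaining marker lists stand beside 38.3% of all genes called higher and 30.4% lower. Fibroblast markers were called higher for 6 of 8 members listed (median 5.23, 0.001% of the spleen totals and 0.064 to 0.125% of the tumor totals), and the defining markers Dcn, Lum and Pdgfra are not among the genes listed. Markers of CD8 T and NK cells were higher for 8 of 11 and lower for 1 (median 2.34), and made up 0.007 to 0.008% of the spleen totals and 0.030 to 0.044% of the tumor totals. The values of Cd8a were 1.38, 1.23 and 1.25 in spleen and 5.98, 5.63 and 5.85 in tumor. The groups were far apart (4.54, SE 0.13, adjusted p = 1.42e-06). Klrb1c, the NK receptor NK1.1, was lower (-1.48, SE 0.29, adjusted p = 0.00265), and lost its call with T-cell lineage centring. Dendritic cell markers were higher for 7 of 9 (median 0.77), with 0.001 to 0.002% of the spleen and 0.010 to 0.017% of the tumor totals. B-cell markers were lower for 7 of 9 (median -1.22; 3 with T-cell lineage centring), with 0.050 to 0.125% of the spleen and 0.006 to 0.013% of the tumor totals, and Pax5 is not among the genes listed. Erythroid and platelet markers were lower for 8 of 9 (median -2.69), but their summed share was 0.019 to 0.158% in spleen and 0.022 to 0.056% in tumor, with Pf4, a chemokine of platelets that macrophages also make, higher by 6.53. The endothelial list was higher for 6 of 8 and lower for 2 (median 0.71, turning to -1.12 when genes with a mean below 2 were left out), and its summed share was 0.009 to 0.010% in spleen and 0.004 to 0.005% in tumor. Neutrophil markers were thinly covered, with 4 of 12 listed and S100a8, S100a9 and Ly6g not among them, 2 higher and 1 lower, and 0.002 to 0.003% of the spleen and 0.002 to 0.004% of the tumor totals. Of 10 epithelial markers 4 were tested, with 1 higher and 2 lower, a median of -0.59 that became 0.42 with T-cell lineage centring and 1.03 at the stricter filter, and 0.001 to 0.002% of the totals in both tissues.

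Members of the B-cell, endothelial and epithelial lists moved in both directions. Among T-cell lineage genes the tyrosine kinase Txk, the factor Bcl11b and the adaptors Skap1 and Trat1 fell by 1.87 (SE 0.22), 1.86 (SE 0.28), 1.85 (SE 0.21) and 1.76 (SE 0.39). Tumor libraries gave Bcl11b values of 5.43, 4.30 and 4.39, and spleen libraries 6.56, 6.62 and 6.52. Tumor replicate 1 was the tumor library nearest to spleen for Bcl11b. Of the CD8 T and NK genes the killer-cell receptor Klrd1 rose by 3.32 (SE 0.22) and Cd8b1 by 3.03 (SE 0.17). The dendritic cell genes Fscn1, an actin bundler, and Itgax, the CD11c integrin, rose by 4.75 (SE 0.33) and 4.64 (SE 0.23), Batf3 by 1.80 (SE 0.24) and Cd209a by 1.72 (SE 0.33). The immunoglobulin genes Ighm and Igkc fell by 3.04 (SE 0.19) and 2.95 (SE 0.59), Ighd by 1.76 (SE 0.19) and Ms4a1 (CD20) by 1.39 (SE 0.20), the last without a call under T-cell lineage centring, while the B-cell adaptor Blnk, also used by macrophages, rose by 2.12 (SE 0.18). Of the endothelial genes Eng and Flt1 rose by 3.26 (SE 0.17) and 2.81 (SE 0.23) and Cdh5 by 1.01 (SE 0.15), and Pecam1 and Vwf, which blood cells also express, fell by 1.59 (SE 0.16) and 1.12 (SE 0.15), without a call under T-cell lineage centring. Cdh1, the E-cadherin gene, rose by 3.24 (SE 0.21), and Lgals4 was at -1.19 and not called with that centring. Vil1 was at -0.81 and turned to 0.20 with it. The neutrophil growth factor receptor Csf3r rose by 2.50 (SE 0.18), and lactoferrin (Ltf), at 1.35 (SE 0.39), was not called without spleen replicate 2 (adjusted p = 0.0512) or 3 (adjusted p = 0.0538).

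**Figure D2:**
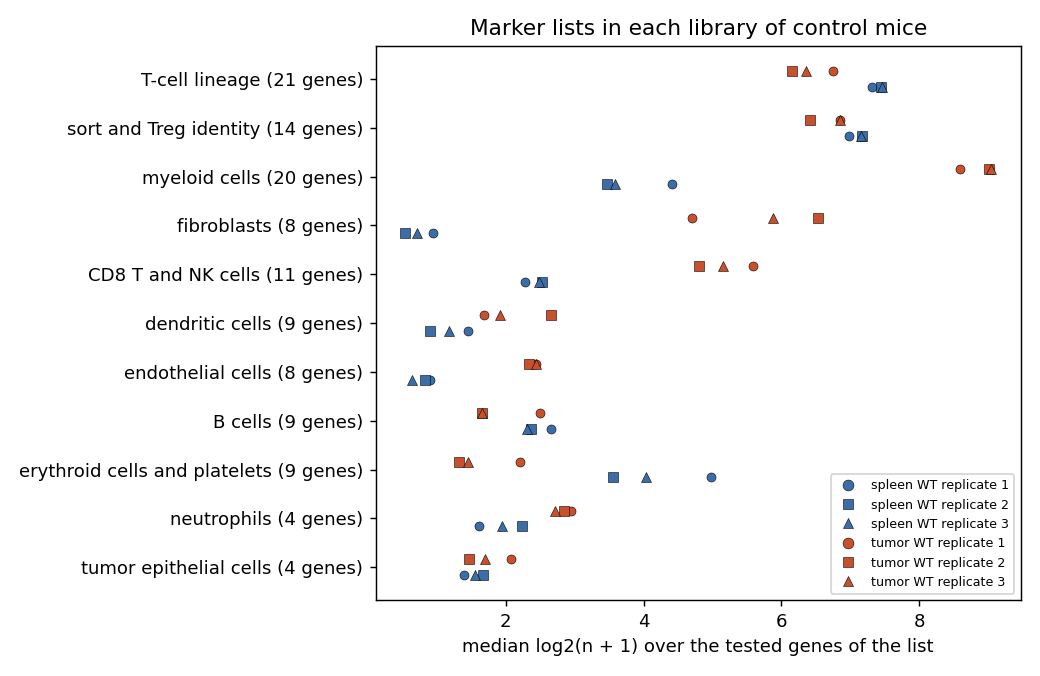
Median log2(n + 1) over the tested genes of each marker list (x axis) in each of the 6 WT libraries, blue for spleen and red for tumor, with the symbol giving the replicate number. Myeloid, fibroblast and CD8 T and NK medians lie higher in the 3 tumor libraries. The T-cell lineage and the sort and Treg identity medians lie lower in tumor, and their median differences turn positive with T-cell lineage centring.

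Genes that define Tregs gave a mixed picture. Of 14 genes used in the sort or marking Treg identity, 2 were called higher and 8 lower, beside 38.3% and 30.4% of all genes, with a median difference of -0.51. The median became -1.16, with none higher and 12 lower, under equal totals without Gm12896, and 0.50, with 6 higher and 1 lower, under T-cell lineage centring. Foxp3 measured 6.17, 6.75 and 6.28 in spleen and 5.54, 4.72 and 5.24 in tumor. All 3 tumor libraries lay below all 3 spleen libraries, a difference of -1.23 (SE 0.23, adjusted p = 0.00223), and with T-cell lineage centring the difference was -0.22 and not called (adjusted p = 0.474). Foxp3 is at chrX:7573644-7595245 on GRCm38, the mm10 build. Helios (Ikzf2), a partner factor of Foxp3, was lower by a like size (-1.36, SE 0.19, adjusted p = 0.000508), and that call too was lost with T-cell lineage centring (-0.35). Eos (Ikzf4) and GARP (Lrrc32), which presents latent TGF-beta on activated Tregs, were lower, at -0.87 (SE 0.23) and -0.71 (SE 0.15) and reversed to 0.14 and 0.30 with that centring.

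Of the surface molecules of the sort, CD25 (Il2ra), the high-affinity chain of the IL-2 receptor, was lower by a small margin. Il2ra was at 7.02, 7.41 and 7.29 in the spleen libraries and at 6.79, 6.51 and 7.01 in the tumor libraries. Its difference was -0.47 (SE 0.16, adjusted p = 0.0291), and its call was lost when spleen replicate 2 or 3 or tumor replicate 1 or 2 was left out (adjusted p = 0.098, 0.0841, 0.0525 and 0.0823), and the difference turned to 0.55 with T-cell lineage centring. GITR (Tnfrsf18) was higher. Tnfrsf18 stood at 6.33, 6.47 and 6.59 in spleen, against 7.79, 7.14 and 7.43 in tumor. The groups did not overlap (0.99, SE 0.17, adjusted p = 0.00125), and the call was lost with quantile normalization (adjusted p = 0.121) and with equal totals without Gm12896 (adjusted p = 0.0998). CD45 (Ptprc) was lower, at -1.15 (SE 0.12), a call lost with T-cell lineage centring. Cd3e was lower, at -0.56 (SE 0.16), turned to 0.46 with T-cell lineage centring and was not called without spleen replicate 3 (adjusted p = 0.0551), tumor replicate 2 (adjusted p = 0.0515) or tumor replicate 3 (adjusted p = 0.0604). Cd3d, Cd3g and Nrp1 did not pass the test, at -0.34, 0.09 and -0.06. With T-cell lineage centring all 3 were called higher, at 0.67, 1.10 and 0.95. Under the other 4 scalings Cd3d was called lower in all 4 (-0.58 to -0.99), Cd3g in 3 (-0.52 to -0.73, and -0.15 without a call with median centring) and Nrp1 in 3 (-0.42 to -0.70). Cd3d passed the test without tumor replicate 1 (-0.48, adjusted p = 0.0124). Without that library Cd4 passed it too, at -0.56 (adjusted p = 0.00452), and Cd3g was at -0.097.

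The values of Ctla4 were 7.86, 8.13 and 8.03 in spleen and 8.90, 8.41 and 8.66 in tumor. The checkpoint receptor CTLA-4 was thus higher in all 3 tumor libraries, by 0.65 (SE 0.14, adjusted p = 0.00494), but it was at -0.23 with quantile normalization and at 0.04 and -0.00084 with equal totals with and without Gm12896. Gpr83, a receptor enriched in Tregs, showed the largest difference of the identity list. Tumor libraries gave Gpr83 values of 0.93, 0.66 and 0.34, and spleen libraries 4.94, 5.35 and 4.88. The fall was -4.42 (SE 0.20, adjusted p = 5.34e-06) and was called under all 5 scalings. Gpr83 is at chr9:14860210-14870789.

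Costimulatory and inhibitory receptors moved in both directions, with more rises than falls. Beside 38.3% of all genes called higher and 30.4% lower, in the list of 18 co-inhibitory receptors and ligands 13 were higher, 3 lower and 2 not called (median 1.62), and of 20 TNF receptor and CD28 family members 10 were higher, 6 lower and 4 not called (median 0.56, turning to -0.029 with 6 higher and 9 lower under equal totals without Gm12896). Havcr2 measured 0.90, 0.59 and 1.11 in spleen and 5.86, 5.89 and 5.95 in tumor. Tim-3 was thus close to the bottom of the scale in spleen and within 0.1 among the tumor libraries (5.03, SE 0.16, adjusted p = 1.67e-06). Lag3 was at 3.78, 3.07 and 4.54 in the spleen libraries and at 6.55, 6.43 and 6.50 in the tumor libraries. Lag3, which binds MHC class II, differed more among the spleen libraries than among the tumor libraries (2.70, SE 0.32, adjusted p = 0.000244). Markers of myeloid cells and of CD8 T cells rose in the same libraries, and which cells gave the Havcr2 and Lag3 values was not tested.

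Tnfrsf9 stood at 5.46, 5.61 and 5.93 in spleen, against 8.60, 8.97 and 9.04 in tumor. The values of Icos were 5.59, 5.64 and 5.93 in spleen and 7.84, 7.92 and 7.93 in tumor. Both receptors, 4-1BB and ICOS, were higher without overlap, by 3.21 (SE 0.16) and 2.18 (SE 0.11), and were called under all 5 scalings. OX40 ligand (Tnfsf4) rose by 2.12 (SE 0.14), and the collagen receptor Lair1 and the CD28 and CTLA-4 ligand Cd80 rose by 3.87 (SE 0.18) and 2.87 (SE 0.20); these ligands and Lair1 are also made by myeloid cells, whose markers rose in the same libraries. Tumor libraries gave Tnfsf9 values of 4.96, 7.36 and 7.37, and spleen libraries 2.89, 2.05 and 1.97. The 4-1BB ligand was 2.40 lower in tumor replicate 1 than in the other tumor libraries at their nearest. Members that fell were Tnfrsf25 (-2.69), the DR3 receptor for TL1A, Btla (-2.66), which binds HVEM, Cd27 (-1.77), Cd40lg (-1.57), Cd160 (-1.44), Cd96 (-1.41) and Tnfrsf26 (-0.96). Of these, Cd40lg, Cd160 and Cd96 lost their calls with T-cell lineage centring and Tnfrsf26 turned to 0.057. Cd160 also lost its call without spleen replicate 2 (adjusted p = 0.0789) or 3 (adjusted p = 0.0755) and without tumor replicate 2 (adjusted p = 0.0652) or 3 (adjusted p = 0.0735).

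**Figure D3:**
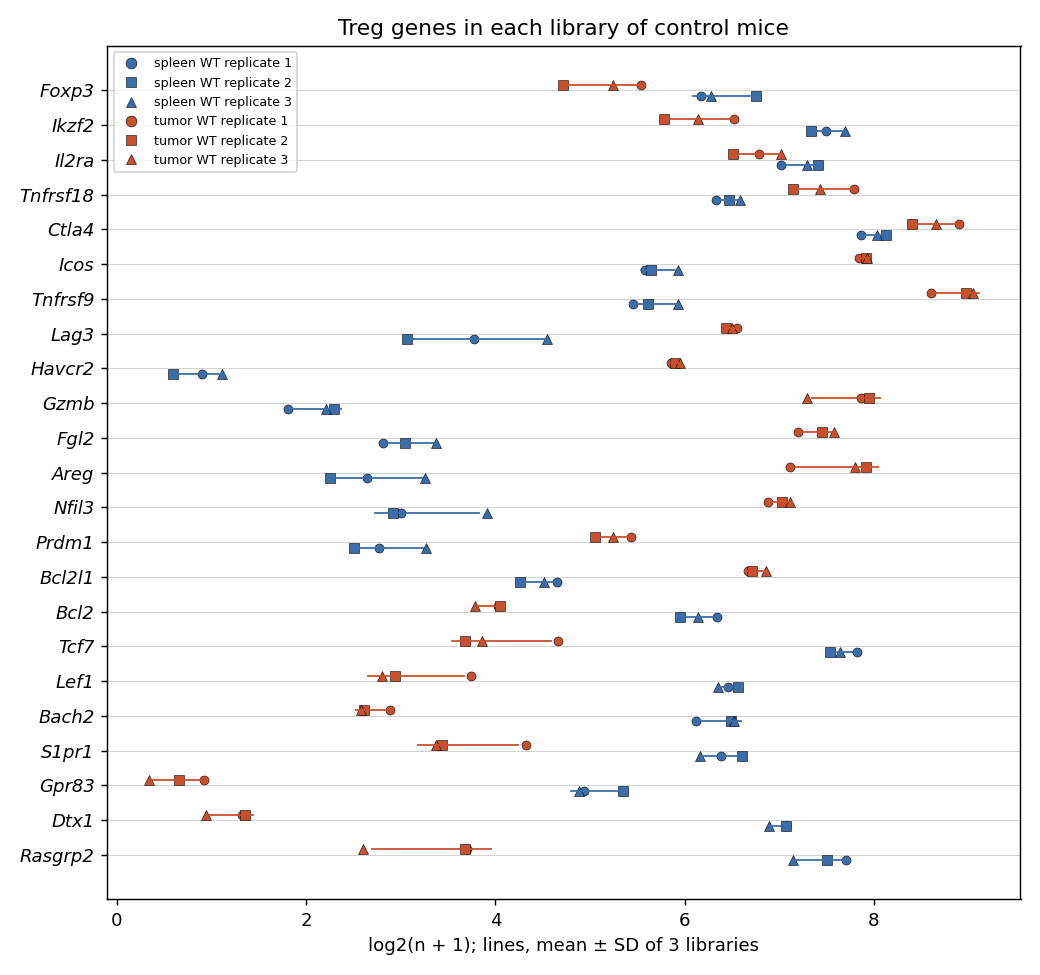
Log2(n + 1) of 23 genes named in the text (rows) in each of the 6 WT libraries, blue for spleen and red for tumor, with the symbol giving the replicate number and lines the mean ± SD of 3 libraries. Icos, Tnfrsf9, Havcr2, Gzmb and Bcl2l1 lie higher in tumor without overlap, and Tcf7, Bach2, Gpr83 and Dtx1 lower. The position of Ctla4 above spleen turned around with quantile normalization and with equal totals without Gm12896, and that of Il2ra below it with T-cell lineage centring.

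Most suppressive and tissue-repair products were higher in tumor. Of 16 listed effector molecules 14 were higher, 1 lower and 1 not called (median 2.72), beside 38.3% of all genes higher. Gzmb measured 1.81, 2.30 and 2.21 in spleen and 7.87, 7.95 and 7.29 in tumor. Granzyme B, a protease of cytotoxic granules that Tregs also use, rose by 5.60 (SE 0.20). Areg was at 2.65, 2.25 and 3.26 in the spleen libraries and at 7.12, 7.91 and 7.80 in the tumor libraries. Amphiregulin, an EGF receptor ligand of tissue-repair Tregs, rose by 4.89 (SE 0.29) with tumor replicate 1 the lowest of the tumor libraries. Fgl2 stood at 2.82, 3.05 and 3.37 in spleen, against 7.19, 7.45 and 7.57 in tumor. The secreted suppressor Fgl2 rose by 4.33 (SE 0.17), and galectin-1 (Lgals1) by 4.02 (SE 0.18). All 4 were called under all 5 scalings. Gzmb and Prf1 (3.55) are also genes of CD8 T and NK cells, and Fgl2, Areg and Lgals1 are also made by myeloid cells, whose markers moved in the same direction. CD73 (Nt5e), which makes adenosine, was the member that fell, at -0.94 (SE 0.15, adjusted p = 0.000993), and was at 0.068 with T-cell lineage centring.

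The lists of quiescence and effector transcription factors moved mostly in opposite directions. Of 14 factors of quiescent and central Tregs 13 were lower and 1 higher (median -1.23), and of 19 effector Treg factors 14 were higher, 4 lower and 1 not called (median 0.97), beside 30.4% of all genes lower and 38.3% higher. With T-cell lineage centring 6 of the quiescence factors were lower (median -0.22), beside 457 of all 13876 genes (median 1.11). With equal totals 9 of the effector factors were higher (median 0.42), beside 2898 of all genes (median -0.42). The values of Tcf7 were 7.82, 7.53 and 7.64 in spleen and 4.66, 3.68 and 3.86 in tumor. Tumor libraries gave Bach2 values of 2.88, 2.61 and 2.58, and spleen libraries 6.12, 6.49 and 6.52. TCF-1 (Tcf7), a factor of naive and memory T cells, and Bach2, which restrains effector genes, fell by 3.60 (SE 0.24) and 3.68 (SE 0.15) on the log2 scale. Lef1 measured 6.45, 6.56 and 6.36 in spleen and 3.74, 2.94 and 2.81 in tumor. The TCF-1 relative Lef1 fell by 3.30 (SE 0.23), and in both Tcf7 and Lef1 tumor replicate 1 was the tumor library nearest to spleen. Foxp1 was at 7.57, 7.57 and 7.56 in the spleen libraries and at 5.16, 5.30 and 5.23 in the tumor libraries. Foxp1, a factor of T-cell quiescence, varied by no more than 0.14 within a tissue and differed by -2.34 (SE 0.08, adjusted p = 2.36e-06). These 4 falls were called under all 5 scalings, that with T-cell lineage centring included. Sox4, a factor of the HMG-box group, was the member that rose (1.59, SE 0.35, adjusted p = 0.00458), and tumor replicate 2 was its highest library at 4.52.

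Nfil3 stood at 3.01, 2.92 and 3.91 in spleen, against 6.88, 7.03 and 7.12 in tumor. Nfil3, a bZIP factor, rose by 3.73 (SE 0.25). Blimp-1 (Prdm1), which drives the effector program of Tregs, rose by 2.39 (SE 0.21), the vitamin D receptor Vdr by 2.44 (SE 0.24) and Bhlhe40 by 2.25 (SE 0.24), each without overlap. Of the same list, Batf was higher by only 0.55 (SE 0.18) on the deposited scale, and Irf4, at 0.41 (SE 0.17), was not called. Markers of myeloid cells rose in the same libraries, and which cells gave the values of these factors was not tested. The values of Tox were 5.71, 5.39 and 6.03 in spleen and 4.92, 2.71 and 3.47 in tumor. Tox, a factor of chronically stimulated T cells, fell by 2.01 (SE 0.50) on the log2 scale, with tumor replicate 1 well above the other tumor libraries. Tox2 (-1.41) and Ikzf3 (-1.31) fell but lost their calls with T-cell lineage centring. Gata3, at -0.65 (SE 0.22), turned to 0.37 with that centring and lost its call without spleen replicate 1 (adjusted p = 0.0957) or 3 (adjusted p = 0.0964) and without tumor replicate 2 (adjusted p = 0.0696) or 3 (adjusted p = 0.0689).

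Homing and recirculation genes fell for 9 of 15 members and rose for 4, beside 30.4% and 38.3% of all genes (median -0.72, which was -1.37 with 11 lower and 1 higher under equal totals without Gm12896 and turned to 0.29 with 4 lower and 6 higher under T-cell lineage centring). Tumor libraries gave S1pr1 values of 4.32, 3.44 and 3.37, and spleen libraries 6.39, 6.61 and 6.16. S1pr1, the receptor that guides exit from lymphoid organs, fell by 2.67 (SE 0.26). Cxcr5, the receptor for entry into follicles, fell by 2.99 (SE 0.24), and Icam2 by 1.83 (SE 0.16). All 3 were called under all 5 scalings. Ccr7, the lymph node homing receptor, did not fall with them, at 0.30 (SE 0.09, adjusted p = 0.0205). It turned negative with quantile normalization (-0.15) and with equal totals with and without Gm12896 (-0.30 and -0.34), and lost its call without spleen replicate 1 (adjusted p = 0.0712) or 3 (adjusted p = 0.0717). Cxcr4, the receptor of the stromal chemokine CXCL12, rose by 1.56 (SE 0.24). Itgb1 rose by 0.92 (SE 0.25), but lost its call with quantile normalization and with equal totals with and without Gm12896. Selplg, at 0.39 (SE 0.10), turned to -0.25, -0.22 and -0.26 with quantile normalization and equal totals with and without Gm12896.

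Chemokine receptors went both ways, with 10 of 18 higher and 6 lower beside 38.3% and 30.4% of all genes, so that the share of falls was near the background (median 0.31, turning to -0.19 and -0.22 with equal totals with and without Gm12896). Ccr1 measured 0.18, 0.23 and 0.46 in spleen and 6.40, 6.80 and 6.84 in tumor. Ccr2 was at 2.95, 3.64 and 3.68 in the spleen libraries and at 7.29, 6.92 and 6.69 in the tumor libraries. Ccr1 and Ccr2, receptors for inflammatory chemokines on monocytes and on activated T cells, rose by 6.39 (SE 0.16) and 3.55 (SE 0.23). Ccrl2 rose by 4.91 (SE 0.37) and the fractalkine receptor Cx3cr1 by 3.51 (SE 0.46). The gut-homing receptor Ccr9 (-2.17), the eosinophil receptor Ccr3 (-1.79) and the neutrophil receptor Cxcr2 (-1.65) fell, the last without a call under T-cell lineage centring.

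The chemokine ligands were higher for 15 of 16 listed members, beside 38.3% of all genes, with 1 not called and a median of 4.85. Cxcl2 stood at 1.84, 1.92 and 1.33 in spleen, against 7.30, 11.12 and 10.66 in tumor. Cxcl2, which draws neutrophils, thus differed by over 3 between tumor replicate 1 and the other tumor libraries, and its rise of 8.0 (SE 0.90, adjusted p = 0.000176) carried the largest error of the 10 largest rises. Ccl6, Cxcl16 and Ccl9 rose by 7.26 (SE 0.46), 6.54 (SE 0.12) and 6.40 (SE 0.18). All are known products of macrophages. In this list tumor replicate 1 had the lowest tumor value for 11 of 16 members.

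Among receptors of the common gamma chain and IL-1 families 7 of 15 were higher and 3 lower, shares near the 38.3% and 30.4% of all genes (median 0.34, turning to -0.26 and -0.29 with equal totals with and without Gm12896). The values of Il1rl1 were 3.0, 2.58 and 2.71 in spleen and 5.28, 5.77 and 5.49 in tumor. ST2 (Il1rl1), the IL-33 receptor of tissue Tregs, rose by 2.75 (SE 0.17). Tumor libraries gave Il1r2 values of 6.72, 6.41 and 6.94, and spleen libraries 3.84, 2.30 and 4.63. Il1r2, a decoy receptor for IL-1, rose by 3.10 (SE 0.52) and varied most in spleen, where replicate 2 was 1.54 below the next library. The IL-1 receptor antagonist Il1rn, a secreted product grouped with this list, rose by 7.33 (SE 0.41), and Il1r1 by 1.75 (SE 0.28). Il9r fell by 1.10 (SE 0.29) and lost its call with T-cell lineage centring. Il15ra, at -0.35 (SE 0.11), turned to 0.66 with that centring and was not called without spleen replicate 1 (adjusted p = 0.0556), spleen replicate 3 (adjusted p = 0.0757) or tumor replicate 3 (adjusted p = 0.0572).

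Genes of recent stimulation were higher in tumor while much of the T-cell receptor cascade was lower. Of 20 immediate early genes (NR4A, EGR and AP-1 families) 18 were higher and none lower (median 1.95; 12 higher and 1 lower with quantile normalization), and of 21 proximal T-cell receptor genes 3 were higher and 14 lower, beside 38.3% and 30.4% of all genes (median -0.69, which was -1.34 with none higher and 18 lower under equal totals without Gm12896, turning to 0.32 with 7 higher and 3 lower under T-cell lineage centring). Ier3 measured 1.46, 0.97 and 2.56 in spleen and 7.60, 9.50 and 9.51 in tumor. Atf3 was at 1.19, 1.28 and 2.37 in the spleen libraries and at 7.21, 7.83 and 7.77 in the tumor libraries. Ier3 and Atf3, both induced within minutes to hours of stress or stimulation, rose by 7.21 (SE 0.59) and 5.99 (SE 0.33). The AP-1 members Fosl2 and Fosl1 rose by 5.08 (SE 0.21) and 3.55 (SE 0.41). Tumor replicate 1 held the lowest tumor value for 17 of the 20 genes. Tumors and spleens were also prepared in different ways, and what part that had in these values was not tested. Prkcq stood at 7.20, 7.35 and 7.27 in spleen, against 4.90, 4.43 and 4.39 in tumor. PKC-theta (Prkcq), the kinase that links the receptor to NF-kB, fell by 2.70 (SE 0.15). The adaptor Lat fell by 1.70 (SE 0.21) and Plcg1 by 1.56 (SE 0.20), the latter without a call under T-cell lineage centring. Bcl10 and Malt1, which act further down toward NF-kB, went the other way, at 0.93 (SE 0.13) and 0.85 (SE 0.15), calls that equal totals with and without Gm12896 removed. Ubash3b, at 0.40, turned to -0.19 and -0.23 with these 2 scalings and lost its call without spleen replicate 2 (adjusted p = 0.0809), tumor replicate 2 (adjusted p = 0.0554) or tumor replicate 3 (adjusted p = 0.0749).

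NF-kB subunits and regulators were higher for 8 of 20 and lower for 4, near the background of all genes (median 0.17, turning to -0.065, -0.15, -0.42 and -0.46 with median centring, quantile normalization and equal totals with and without Gm12896). The inhibitors of NF-kB led the rises. The values of Nfkbia were 7.63, 7.89 and 8.19 in spleen and 9.25, 10.04 and 10.03 in tumor. IkB-alpha (Nfkbia) rose by 1.87 (SE 0.24), Nfkbie by 1.44 (SE 0.20) and Nfkbib by 1.30 (SE 0.12). Nfkbiz was at 6.85 in tumor replicate 1 against 8.55 and 8.67 in the others, and its call (1.54, SE 0.44, adjusted p = 0.0152) was lost with quantile normalization, with equal totals with and without Gm12896 and without tumor replicate 3 (1.22, adjusted p = 0.0507). The kinase Ikbkb fell by 1.07 (SE 0.10), without a call under T-cell lineage centring, and Chuk (-0.97), Tnip1 (-0.57) and Traf2 (-0.51) turned to 0.043, 0.44 and 0.50 with that centring.

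The BCL-2 family included a pair of survival genes that moved in opposite directions. Tumor libraries gave Bcl2l1 values of 6.67, 6.71 and 6.86, and spleen libraries 4.65, 4.26 and 4.51. Bcl2 measured 6.34, 5.95 and 6.14 in spleen and 4.03, 4.05 and 3.78 in tumor. BCL-XL (Bcl2l1) was higher in tumor in 3 of 3 libraries, by 2.27 (SE 0.12, adjusted p = 8.94e-06) or 4.83-fold in n + 1, and BCL-2 (Bcl2) was lower, at -2.19 (SE 0.13, adjusted p = 1.28e-05) or 4.56-fold. Neither pair of groups overlapped, both were called under all 5 scalings and when any library was left out, and the libraries of a tissue lay within 0.40 of each other. Bcl2l1 is at chr2:152780668-152831728 and Bcl2 at chr1:106538178-106714274, both on the minus strand.

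Of the 25 family members tested 15 were higher, 3 lower and 7 not called (median 1.0), beside 38.3% of all genes higher and 30.4% lower. With equal totals 10 were higher and 7 lower (median 0.40). Hrk and Bcl2l10 are not among the genes listed. Bnip3 was at 1.69, 2.09 and 1.75 in the spleen libraries and at 7.40, 7.76 and 8.18 in the tumor libraries. Bnip3, a hypoxia-induced mitophagy receptor, rose by 5.94 (SE 0.21). The A1 genes Bcl2a1a, Bcl2a1b and Bcl2a1d rose by 4.52 (SE 0.35), 3.66 (SE 0.22) and 3.51 (SE 0.22), and since their sequences are nearly the same, the assignment of reads among them is uncertain. The death inducer PUMA (Bbc3) was at -0.68 (SE 0.17) and turned to 0.34 with T-cell lineage centring. Bcl2l15 was at -0.45 (SE 0.17), turned to 0.56 with that centring, and was called neither with a pseudocount of 5 nor without spleen replicate 1 (adjusted p = 0.145) or 2 (adjusted p = 0.108) or tumor replicate 2 (adjusted p = 0.101) or 3 (adjusted p = 0.14).

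Of the metabolic lists tested, glycolysis and hypoxia had the largest median. Of 29 tested 26 were higher, none lower and 3 not called, with a median of 2.80, beside 38.3% of all genes higher. Vegfa stood at 0.68, 1.20 and 0.75 in spleen, against 7.36, 7.92 and 8.16 in tumor. The values of Slc16a3 were 3.15, 3.18 and 3.0 in spleen and 7.36, 7.93 and 8.04 in tumor. The angiogenic factor Vegfa rose by 6.94 (SE 0.23) and the lactate exporter Slc16a3 (MCT4) by 4.67 (SE 0.18). Hilpda, a lipid droplet protein induced by hypoxia, rose by 4.72 (SE 0.24). Tumor replicate 1 had the lowest tumor value for 24 of the 29 genes and tumor replicate 3 the highest for 20. Vegfa, Slc16a3 and Bnip3 are widely expressed genes that myeloid cells also use.

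The letters ACGTG are a form of the core of the element that hypoxia-inducible factors bind, and no other form was searched. Below, the core means these letters only. They were searched on both strands in the 250 bases before each start listed in a RefSeq promoter table (GRCm38.p6), in which 27 of the 29 tested genes matched. The core was present in 20 of the 41 windows of these genes (48.8%), beside 16.6% of all 32851 windows. By gene, 18 of 27 (66.7%) held it in at least 1 window, beside 18.5% of all 27025 genes. Base composition and the number of windows per gene were not matched in this count, and a match of 5 letters is a description, not a binding site. The list was drawn up from known glycolysis and hypoxia genes, so the shares describe the list and not the values of these libraries. Windows of the most raised genes are printed because they show where the core lies, 5′ to 3′ on the gene's own strand and with the core in capitals on either strand. In Bnip3, chr7:138909507-138909756 on the minus strand, the capitals mark an overlap of the core on both strands. The Slc16a3 window, chr11:120948817-120949066 on the plus strand, holds the core in 2 places. For Hilpda, chr6:29272376-29272625 on the plus strand, the window before the second listed start holds it, and that before the first does not.
Bnip3: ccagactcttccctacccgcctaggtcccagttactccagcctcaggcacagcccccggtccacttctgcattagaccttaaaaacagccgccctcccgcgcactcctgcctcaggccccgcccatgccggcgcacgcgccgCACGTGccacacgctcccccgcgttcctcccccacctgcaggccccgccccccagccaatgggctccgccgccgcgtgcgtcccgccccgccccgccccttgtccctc
Slc16a3: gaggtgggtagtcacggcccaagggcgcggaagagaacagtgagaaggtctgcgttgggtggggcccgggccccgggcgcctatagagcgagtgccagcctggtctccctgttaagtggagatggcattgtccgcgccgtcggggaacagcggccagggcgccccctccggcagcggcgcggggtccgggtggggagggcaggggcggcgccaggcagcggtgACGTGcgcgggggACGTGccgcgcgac
Hilpda: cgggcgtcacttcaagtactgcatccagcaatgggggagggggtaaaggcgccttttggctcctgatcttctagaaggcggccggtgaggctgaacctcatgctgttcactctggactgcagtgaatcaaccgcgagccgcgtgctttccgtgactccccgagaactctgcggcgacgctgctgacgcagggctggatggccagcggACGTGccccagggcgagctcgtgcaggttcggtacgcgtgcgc
The first listed Vegfa start holds no core in its 250 bases, and the second, inside the gene, holds 1.

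Further groups of metabolism and growth moved together by smaller amounts. From here through the antioxidant genes, counts on the deposited scale stand beside 38.3% of all genes called higher and 30.4% lower. Those with equal totals stand beside 2898 of all 13876 genes higher and 6716 lower. Oxidative phosphorylation genes were higher for 74 of 79 members (median 1.04; 47 higher and 3 lower with equal totals), with Ndufc1, a subunit of complex I, at 2.36 (SE 0.20), Atp5md at 1.87, Cox7b at 1.82 and Atp5l at 1.68. Ndufs1 was the 1 member called lower, at -0.49, and turned to 0.53 with T-cell lineage centring. Cell-cycle genes were higher for 35 of 37 (median 1.45; 26 with equal totals). Tumor libraries gave Cdk1 values of 5.69, 5.69 and 5.93, and spleen libraries 3.54, 2.86 and 3.61. The mitotic kinase Cdk1 rose by 2.43 (SE 0.21), the tubulin regulator Stmn1 by 2.19, cyclin A2 (Ccna2) by 1.98 and the spindle factor Tpx2 by 1.97, and tumor replicate 3 held the highest tumor value for 32 of the 37. Cholesterol synthesis and uptake genes were higher for 19 of 23 (median 0.87; 11 with equal totals), with the pathway enzymes Hmgcs1, Msmo1, Sqle and Fdps between 1.70 and 1.89.

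Proteasome subunits were higher for 36 of 42 (median 0.76; 13 higher and 6 lower with equal totals), with Psmb6, Psmd8, Psmb2 and Psma5 between 1.45 and 1.75, and Psmb11, the subunit of thymic epithelium, at -0.91, turning to 0.10 with T-cell lineage centring. Cytosolic ribosomal protein genes were higher for 50 of 79, with 28 not called and 1 lower (median 0.39). With quantile normalization 2 were higher and 47 lower (median -0.36), with equal totals 3 and 19 (-0.22) and without Gm12896 3 and 31 (-0.26). Rps27l, a p53 target related to Rps27, stood out among them at 2.52 (SE 0.16), followed by Rps4l at 1.43 and Rpl31 and Rpl34 at 1.17 and 0.94, of which Rpl31 lost its call with quantile normalization and Rpl34 with quantile normalization and equal totals with and without Gm12896. Rpl5 was at -0.55 and turned to 0.46 with T-cell lineage centring. Ribosomal protein genes have many processed copies in the genome, so reads may be split among them.

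Antioxidant and iron-handling genes were higher for 19 of 22, with none lower (median 1.39). Mt1 measured 2.64, 1.82 and 2.08 in spleen and 7.66, 8.93 and 9.15 in tumor. Metallothionein 1, which binds zinc and copper, rose by 6.40 (SE 0.39). Sulfiredoxin (Srxn1) rose by 3.99 (SE 0.42) and the ferritin chains Fth1 and Ftl1 by 3.73 (SE 0.18) and 2.85 (SE 0.20). In this list too tumor replicate 1 was the lowest tumor library for most members, 19 of 22.

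Interferon-stimulated genes were higher for 24 of 38, lower for 3 and not called for 11 (median 0.79), beside 38.3% and 30.4% of all genes. With equal totals 10 were higher and 9 lower (median 0.24), beside 2898 and 6716 of all 13876 genes (median -0.42). Cxcl10 was at 3.04, 2.35 and 4.17 in the spleen libraries and at 7.29, 8.87 and 8.76 in the tumor libraries. Cxcl10, a T-cell attractant induced by interferon, rose by 5.12 (SE 0.55), and Oasl2, Gbp2 and Rsad2, antiviral products, by 2.69 (SE 0.19), 2.65 (SE 0.29) and 2.58 (SE 0.29). RIG-I (Ddx58) fell by 1.32 (SE 0.16), without a call under T-cell lineage centring. Irf9, at -0.58, and Usp18, at -0.74, turned to 0.43 and 0.27 with that centring, and Usp18 lost its call without spleen replicate 2 (adjusted p = 0.0509). The 8 GIMAP genes, small GTPases of lymphocytes that support their survival, were all called lower, beside 30.4% of all genes, with a median of -1.52 and 8 of 8 without overlap, beside 74.2% of all genes. With T-cell lineage centring 3 were lower (median -0.50), beside 457 of all 13876 genes (median 1.11). Gimap6 stood at 8.03, 8.50 and 8.22 in spleen, against 7.0, 6.22 and 5.98 in tumor. Tumor replicate 1 was the highest tumor library for each of the 8, and Gimap6 led with -1.85 (SE 0.26). Gimap8 (-1.64) and Gimap3 (-1.61) were called under all 5 scalings, and Gimap9 (-1.59) lost its call with T-cell lineage centring.

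Antigen presentation and lysosomal genes had the largest medians after the chemokine ligands among the lists other than cell type markers. MHC class II genes were higher for 8 of 10 and lower for 1 (median 4.28), and lysosomal genes for 26 of 27 with 1 lower (median 3.19). Over all genes 38.3% were higher and 30.4% lower. The values of H2-Ab1 were 6.04, 4.52 and 5.14 in spleen and 11.19, 11.02 and 11.55 in tumor. H2-Ab1, H2-Eb1, H2-Aa and H2-DMb1 rose by 6.02 (SE 0.35), 6.0 (SE 0.31), 5.82 (SE 0.33) and 5.34 (SE 0.31). Tumor replicate 2 was the lowest tumor library for 9 of the 10, unlike in the myeloid list. H2-Ob, a chaperone subunit of B cells, fell by 1.59 (SE 0.18), without a call under T-cell lineage centring. Tumor libraries gave Cd63 values of 8.56, 9.32 and 8.87, and spleen libraries 1.58, 2.89 and 1.11. Cd63, cathepsin L (Ctsl), cathepsin H (Ctsh) and legumain (Lgmn) rose by 7.06 (SE 0.43), 6.02 (SE 0.23), 5.32 (SE 0.21) and 5.04 (SE 0.19). Cathepsin E (Ctse) was at -0.97 and turned to 0.044 with T-cell lineage centring. Mouse T cells make little MHC class II, and 2 lysosomal genes, Cd68 and Ctss, are also in the myeloid list.

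The largest single rises were those of genes known from macrophages, granulocytes and stroma. Arg1 measured 1.45, 0.83 and 1.64 in spleen and 9.56, 10.74 and 10.73 in tumor. Arginase 1 (chr10:24915221-24927484), which breaks down arginine in myeloid cells, rose by 9.03 (SE 0.35, adjusted p = 3.18e-06). Col3a1 was at 0.18, 0.22 and 0.38 in the spleen libraries and at 8.89, 9.21 and 9.04 in the tumor libraries. The fibrillar collagen gene Col3a1 (chr1:45311538-45349706) rose by 8.79 (SE 0.12), and Bgn, a proteoglycan of the matrix, by 7.74 (SE 0.27). Il1b stood at 1.47, 1.01 and 1.02 in spleen, against 8.43, 10.76 and 10.61 in tumor. IL-1 beta was 2.18 lower in tumor replicate 1 than in the nearest other tumor library, and rose by 8.76 (SE 0.57). The remaining members of the 10 largest were osteopontin (Spp1) at 8.36, the inhibitory Fc receptor Fcgr2b at 8.30, the endotoxin co-receptor Cd14 at 8.11, cyclooxygenase 2 (Ptgs2) at 8.02, Cxcl2 at 8.0 and lysozyme (Lyz2) at 7.86. The values of Lyz2 were 5.34, 3.84 and 4.58 in spleen and 12.02, 12.73 and 12.59 in tumor. Lysozyme was thus well above the bottom of the scale in the spleen libraries too. Ptgs2 was at 6.77 in tumor replicate 1 and at 9.05 and 9.03 in the others. All 10 were called under all 5 scalings.

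The largest falls held T-cell genes together with genes of red cells and B cells. Tumor libraries gave Dtx1 values of 1.32, 1.36 and 0.94, and spleen libraries 7.07, 7.08 and 6.89. Deltex 1 (chr5:120680202-120711927), a ubiquitin ligase and Notch target linked to T-cell anergy, fell by 5.80 (SE 0.14) on the log2 scale, with the spread within each tissue under 0.5. Gm4956 measured 5.71, 5.93 and 5.98 in spleen and 1.20, 0.46 and 0.88 in tumor. Gm4956, a transcribed pseudogene on chromosome 1, fell by 5.02 (SE 0.20). Rasgrp2 was at 7.71, 7.51 and 7.15 in the spleen libraries and at 3.71, 3.68 and 2.60 in the tumor libraries. Rasgrp2, the activator of Rap1 in integrin signaling, fell by 4.13 (SE 0.30), and Nsg2, a membrane protein gene better known from neurons, by 4.40 (SE 0.39).

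The globin genes Hba-a2, Hbb-bs and Hba-a1 fell by 4.87 (SE 0.91), 4.77 (SE 0.87) and 4.19 (SE 0.73). Hba-a2 stood at 9.26, 5.94 and 8.05 in spleen, against 4.35, 2.48 and 1.80 in tumor. Spleen replicate 2 had the lowest spleen value of Hba-a2 and tumor replicate 1 the highest tumor value, and the groups did not overlap. Hba-a1 and Hba-a2 are nearly the same in sequence, so their reads cannot be assigned with certainty. The values of Igha were 7.68, 5.67 and 6.04 in spleen and 0.60, 5.02 and 0.76 in tumor. The heavy-chain gene of IgA was called lower (-4.34, SE 1.16, adjusted p = 0.0116), although tumor replicate 2 stood at 5.02, near the lower spleen libraries. Ighg2b fell by 4.14 (SE 0.36). The markers of red cells and of B cells were lower over their lists too, as given above. Spleen red cells were lysed and tumor cells were taken from a density gradient, and what part this had was not tested.

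Some genes varied widely among the libraries of a tissue. The 5 with the largest SD among the tumor libraries, of those with a tumor mean of at least 3, were Gm12191, Rps27a-ps2, Il1a, Trav6-5 and Cxcl2. Tumor libraries gave Il1a values of 4.83, 8.77 and 8.54, and spleen libraries 0.65, 0.69 and 0.41. IL-1 alpha was 3.71 lower in tumor replicate 1 than in the nearest other tumor library, as with Il1b, and rose by 6.80 (SE 0.94). Gm12191 measured 0.02, 0.39 and 0.15 in spleen and 2.68, 0.02 and 6.82 in tumor. Rps27a-ps2 was at 4.95, 6.48 and 5.72 in the spleen libraries and at 6.41, 0.46 and 5.55 in the tumor libraries. Both are processed pseudogenes and had their lowest tumor value in replicate 2. Neither passed the test on the deposited scale, Gm12191 was called with T-cell lineage centring, and without tumor replicate 2 Gm12191 did (4.56, adjusted p = 0.00912) while Rps27a-ps2 was at 0.26. Trav6-5, a T-cell receptor variable segment, was at 5.71 in tumor replicate 1 and at 1.87 and 2.42 in the others, and it was called lower without that library (-2.09, adjusted p = 0.000377) while the difference over all libraries, -0.90, was 0.11 with T-cell lineage centring.

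The 5 with the largest SD among the spleen libraries were Slc15a2, Gpx3, Gm10925, Gm28437 and Gm10443. Slc15a2 stood at 1.20, 5.81 and 5.61 in spleen, against 3.67, 2.74 and 1.25 in tumor. The peptide transporter Slc15a2 was low in spleen replicate 1 alone, and without it the gene was called lower in tumor (-3.16, adjusted p = 0.00562). The neighboring pseudogenes Gm10925 and Gm28437 on chromosome 1 were low in spleen replicate 1 as well, and were called lower without it, at -2.29 (adjusted p = 0.0282) and -1.73 (adjusted p = 0.0152), while over all libraries Gm28437 was at -0.63 and turned to 0.38 with T-cell lineage centring. The values of Gpx3 were 3.17, 7.07 and 3.40 in spleen and 3.86, 5.70 and 4.25 in tumor. Gpx3, a secreted glutathione peroxidase, was high in replicate 2 of both tissues, and the difference of 0.06 changed sign in several settings. Gm10443 was at the threshold (2.10, SE 0.81, adjusted p = 0.0496) and lost the call in every leave-one-out fit, where the difference lay between 1.11 and 2.36.

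**Figure D4:**
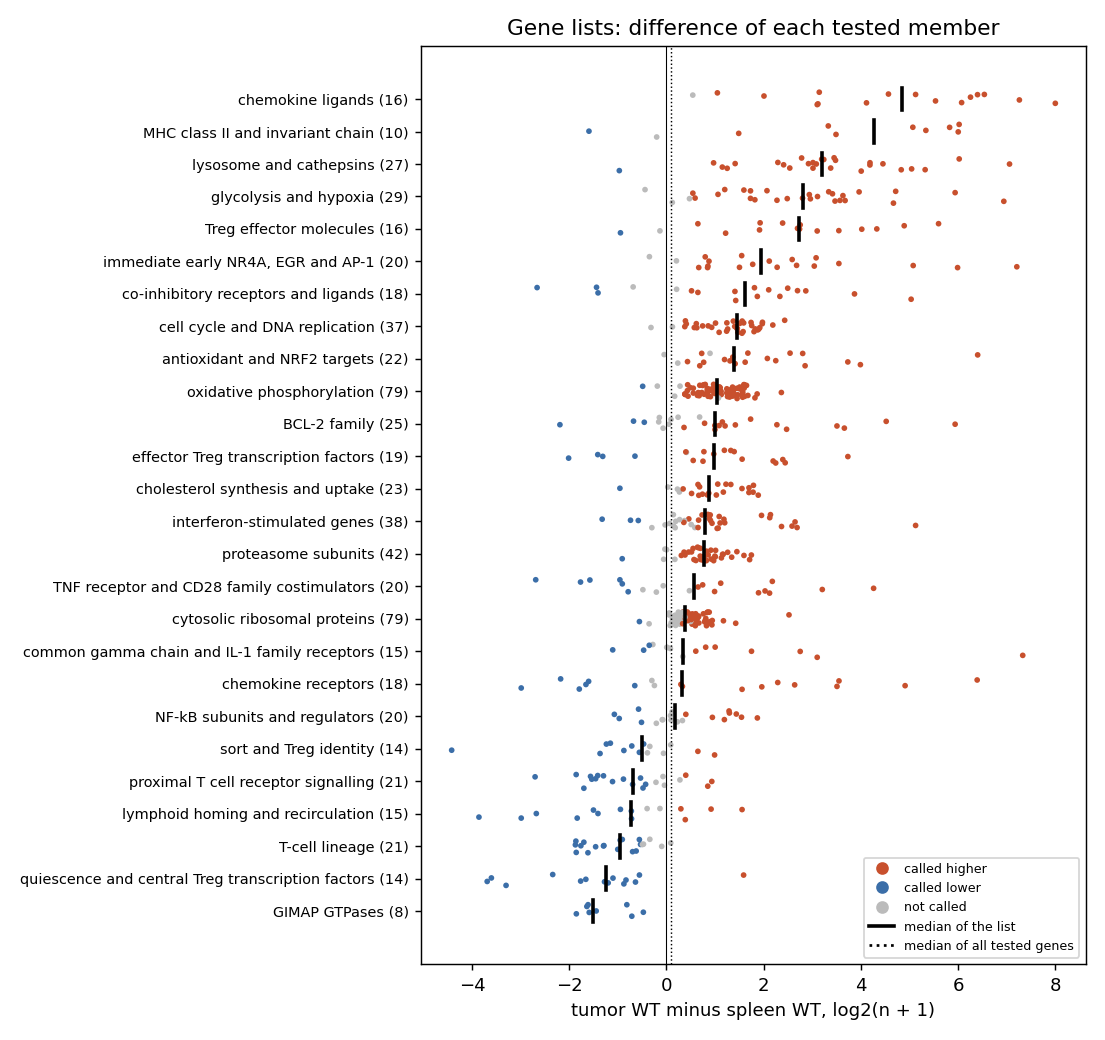
Tumor minus spleen difference in log2(n + 1) (x axis) of each tested gene in 26 gene lists, with the number of tested genes in parentheses, the list median as a black bar and the median of all genes, 0.098, as a dotted line. Chemokine ligands, MHC class II and lysosome lie farthest to the right, and the GIMAP and quiescence lists to the left. The medians of the T-cell lineage, sort and Treg identity, homing and proximal T-cell receptor lists turned positive with T-cell lineage centring, and those of the ribosomal, NF-kB, chemokine receptor and common gamma chain lists turned negative with equal totals, as did that of the TNF receptor list without Gm12896.

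The tissue difference was compared with that in the KO mice, whose 5 libraries share no sample with the 6 of the control mice. In a fit over all 11 libraries the interaction of tissue with genotype was called for 0 of 13876 genes (0%) by limma, with 381 genes at an unadjusted p below 0.05 and a smallest adjusted p of 0.19, that of Gm45837 (-1.71 in WT and -3.82 in KO). The median size of the interaction was 0.14, and it exceeded 1 for 137 genes. Of the genes called in WT, 99.4% had a KO difference of the same sign, beside 92.9% of all tested genes, and the differences correlated across genes with r = 0.976. These are descriptions over genes of the same libraries and not replicates. An interaction that was not called does not show that the genotypes act alike.

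Values for the main genes are given side by side. The SE of each WT difference came from the fit of the WT libraries alone. The SEs of the KO difference and of the interaction came from the fit over all libraries of the series, which pools the variance of both genotypes. The WT and KO SEs therefore do not compare the spread within each genotype. Bcl2l1 differed by 2.27 (SE 0.12) in WT and 2.27 (SE 0.12) in KO mice, with an interaction of 0.0054 (SE 0.17). Bcl2 was at -2.19 (SE 0.13) in WT and -2.78 (SE 0.20) in KO mice, an interaction of 0.59 (SE 0.27). Foxp3 was at -1.23 (SE 0.23) in WT and -0.30 (SE 0.26) in KO mice, an interaction of -0.94 (SE 0.35). Cd8a was at 4.54 (SE 0.13) in WT and 3.23 (SE 0.35) in KO mice, an interaction of 1.31 (SE 0.47). Prf1 was at 3.55 (SE 0.15) in WT and 2.29 (SE 0.25) in KO mice, an interaction of 1.26 (SE 0.34). The adjusted p of each of these interactions in limma was 0.9997, so none passed the test. The fall of Hba-a2, -4.87 (SE 0.91) in WT, was -2.28 (SE 0.94) in KO mice, and that of Igha, -4.34 (SE 1.16), was -1.26 (SE 1.25).

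**Figure D5:**
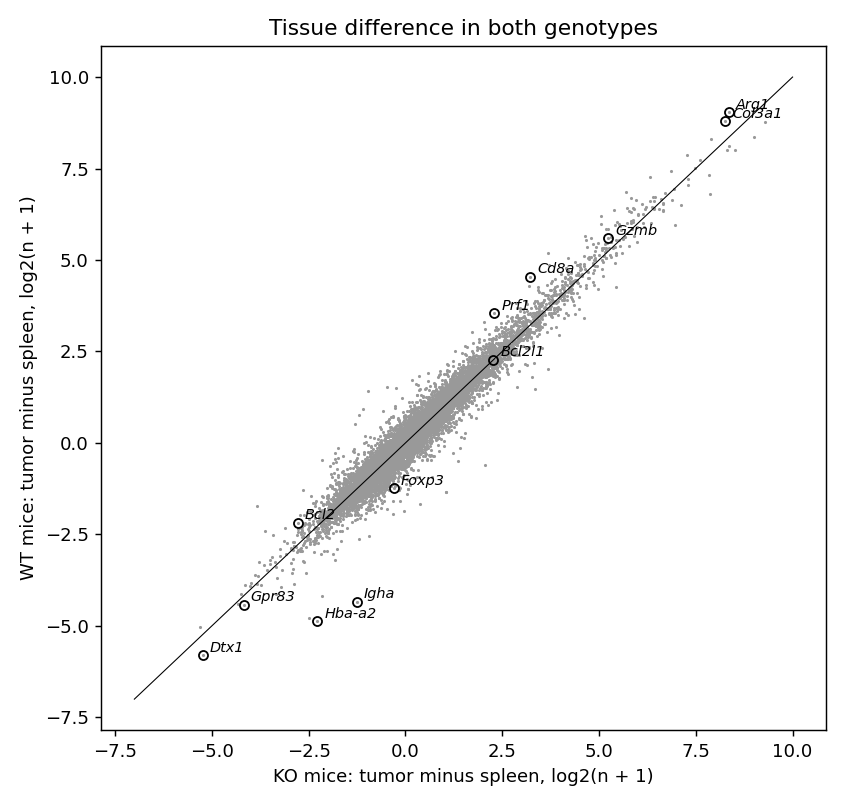
Tumor minus spleen difference in log2(n + 1) in WT mice (y axis, 3 against 3 libraries) against that in KO mice (x axis, 2 tumor against 3 spleen libraries) for the 13876 tested genes, with the line of equal values. Most genes lie along the line, and Foxp3, Hba-a2 and Igha lie below it, at -1.23, -4.87 and -4.34 in WT against -0.30, -2.28 and -1.26 in KO mice.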

How the data were processed

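Per the labels and the study's methods, reads of ribosomal-RNA-depleted libraries were pseudoaligned with kallisto (version not given in the sources used here) to mm10 and aggregated by gene symbol in sleuth 0.30.0, and the authors deposited log2(n + 1) values. The scaling of n and the use of strand are not stated there, so overlapping genes cannot be told apart, and no counting interval can be given.

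Groups follow the labels for tissue and genotype. The deposited log2 values of the 6 WT libraries were fitted with limma 3.58.1 (R 4.3.3; lmFit, eBayes with a trend) after a filter at a mean of 0.5, with Benjamini-Hochberg adjustment at 0.05, and the tissue by genotype interaction was fitted on all 11 libraries. The fit was tested on simulated data. The study's methods name an unpaired t-test between groups with Bonferroni correction. Members and lists were chosen with earlier results of these data known. Genes named by rule were Bcl2l1, Bcl2, the sort and identity list, the 10 largest rises and falls among called genes without overlap, up to 4 called members per list and direction, the 5 most variable genes per tissue among those with a mean of at least 3, and genes called in the interaction. Cd177, also in the rule, is not listed, and some members the rule would name are not reported here. Positions are from GENCODE M21 (GRCm38). Alternatives changed the scaling, pseudocount (0.1 or 5), filter (none or 2), variance trend, correction, samples and replicate block.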

Additional observations from a re-analysis of the deposited data

How the results depend on the processing

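Of 209 named genes, 144 kept their direction and their side of the threshold in every alternative run for them and 186 in every such alternative other than scaling. Bonferroni correction and the required difference of at least 1 were not run for the named genes, only for the count of all genes. The stricter filter kept 193 of the 209, and genes that it removed were judged on the other alternatives. The count of 9541 called genes stayed between 7564 and 10218 under the other scalings, pseudocounts, filters, variance model and sample sets, 8554 to 9758 when 1 library was left out, and was 1189 with Bonferroni correction and 4652 where a difference of at least 1 was required. The interaction gave 0 calls except 1 gene, Gm45837, with a pseudocount of 0.1 and without spleen WT replicate 2 (0 to 1 over the fits that left out 1 library). Deviations of same-numbered spleen and tumor libraries correlated at -0.13, 0.0063 and -0.073, and not every library correlated best with its own number. Such correlations cannot tell whether same-numbered libraries share a mouse, because other differences between libraries enter them too. With the replicate block 9018 genes were called, and 0 interactions, and of the named genes Cd4 gained a call (adjusted p = 0.033) and Il15ra and Gm10443 lost theirs (adjusted p = 0.053 and 0.052). With T-cell lineage centring limma drew each gene's variance more strongly toward the trend (21.1 prior degrees of freedom, against 3.43 on the deposited scale), so calls of genes that vary among libraries, such as Gm12191, rest less on their own spread there. The cause of the changes below was not tested.

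Reversed differences with centring on T-cell lineage genes were Cd3d 0.67, Cd3e 0.46, Cd4 0.62, Il2ra 0.55, Ikzf4 0.14, Lrrc32 0.30, Nrp1 0.95, Tnfrsf26 0.057, Nt5e 0.068, Gata3 0.37, Il15ra 0.66, Chuk 0.043, Tnip1 0.44, Traf2 0.50, Bbc3 0.34, Bcl2l15 0.56, Ndufs1 0.53, Rpl5 0.46, Psmb11 0.10, Usp18 0.27, Irf9 0.43, Ctse 0.044, Vil1 0.20, Trav6-5 0.11 and Gm28437 0.38. Quantile normalization reversed Cd3g -0.73, Ctla4 -0.23, Selplg -0.25, Ccr7 -0.15 and Gpx3 -0.29, and median centring Cd3g -0.15 and Gpx3 -0.18. Equal totals reversed Cd3g -0.52, Selplg -0.22, Ccr7 -0.30, Ubash3b -0.19 and Gpx3 -0.51, and without Gm12896 Cd3g -0.56, Ctla4 -0.00084, Selplg -0.26, Ccr7 -0.34, Ubash3b -0.23 and Gpx3 -0.55. A pseudocount of 5 gave Gpx3 -0.044. Leaving out 1 library gave ranges of -0.097 to 0.20 for Cd3g, -0.24 to 0.039 for Nrp1, -2.71 to 0.26 for Rps27a-ps2 and -0.63 to 1.32 for Gpx3. List medians that reversed were, with T-cell lineage centring, sort and Treg identity 0.50, T-cell lineage 0.062, homing 0.29, proximal T-cell receptor 0.32 and epithelial markers 0.42. With equal totals they were chemokine receptors -0.19, common gamma chain -0.26, NF-kB -0.42 and ribosomal -0.22, and without Gm12896 these were -0.22, -0.29, -0.46 and -0.26 and the TNF receptor list was -0.029. Quantile normalization gave NF-kB -0.15 and ribosomal -0.36, median centring NF-kB -0.065, and the filter at 2 endothelial markers -1.12 and epithelial markers 1.03.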
